A study of Mus musculus with 4 samples.

Results

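Ppp3cb, Rcan2, Nfat5 and Gsk3b are 4 genes around calcineurin signalling, and their m6A peaks were read from lists made in mouse heart. They were chosen by name, as every line that carries 1 of these symbols in either peak list. They make up 4 of the 6653 genes with a peak in at least 1 list, and 12 of the 39717 lines (5 of 16562 in the CHAPIR list and 7 of 23155 in the NC list). The RNA mark m6A, in which a methyl group sits on the N6 position of adenosine, was mapped by MeRIP-seq, which pulls down methylated RNA fragments with an antibody and sequences them beside unselected input. Hearts of C57BL/6 mice came from a CHAPIR group, given a mimic of the PIWI-interacting RNA CHAPIR at 30 mg/kg by implanted osmotic minipump for 14 days, and from an NC group, given a scrambled mimic in the same way. The labels give no dose for the scrambled mimic and no age, sex or number of animals, and both groups carry a pump and a synthetic RNA. Each group had 1 immunoprecipitated (IP) library and 1 input library, and each list was called by the authors on the IP library over its own input. With no replicate there was no measure of spread between hearts and no test between the groups, so each contrast below compares these libraries.

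Calcineurin is a phosphatase switched on by calcium and calmodulin. It strips phosphate from NFAT transcription factors, which then enter the nucleus and turn on growth genes, and this route is a classic driver of cardiac hypertrophy in mice. Ppp3cb encodes the beta form of its catalytic subunit, Rcan2 a protein that binds calcineurin and restrains it, and Gsk3b a kinase that phosphorylates NFAT again and sends it out of the nucleus. Nfat5 encodes the tonicity-responsive member of the NFAT family, which shares the DNA-binding domain but lacks the calcineurin docking region of the others. In mRNA, m6A is known to gather near stop codons and in 3' UTRs, where reader proteins can alter the stability and translation of the transcript.

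The 4 genes divided over the lists in each possible way. Rcan2 had peaks in both lists, Nfat5 in the CHAPIR list only, and Ppp3cb and Gsk3b in the NC list only. For all 6653 genes the shares were 53.5% in both lists, 15.3% in the CHAPIR list only and 31.3% in the NC list only, and 4 genes are too few to be set apart from them. All 12 lines were a single exonic block on the strand of their gene. Lines of a gene repeat for its transcripts with windows shifted by a few bases, and merged where they overlapped they came to 1 site each for Rcan2 and Nfat5 in the CHAPIR list, and to 1 site each for Ppp3cb and Rcan2 and 2 for Gsk3b in the NC list. No line of another gene, on either strand, lay within the RefSeq span of any of the 4 genes in either list.

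The fold enrichment of a peak is the authors' ratio of IP over input signal, and its FDR is the authors' adjusted p-value for that enrichment. Both were deposited per list and are not scaled between the lists, so they rank a peak among the others of its own list only. The median line had a fold of 3.86 in the CHAPIR list (quartiles 2.74 and 6.03) and 3.49 in the NC list (2.51 and 5.23). Among CHAPIR lines Nfat5 stood above Rcan2 by fold, and among NC lines the 3' UTR peak of Gsk3b stood above Ppp3cb, Rcan2 and the 5' UTR peak of Gsk3b. Whether neighbours in these orders differ could not be judged, since there is no spread to set them against.

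**Figure D1:**
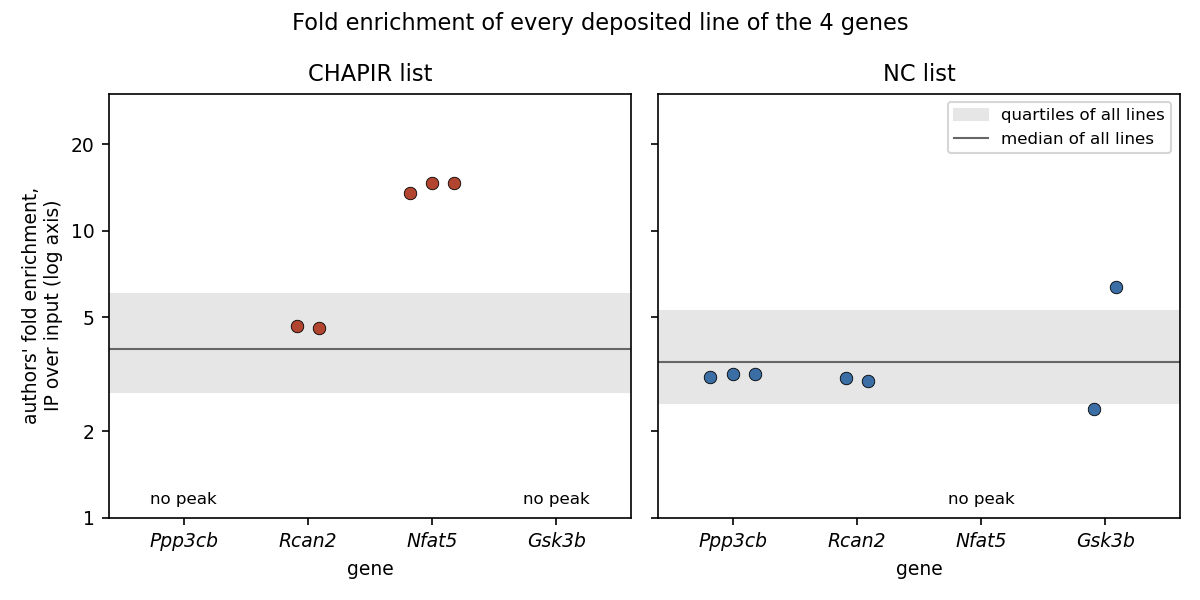
Authors' fold enrichment (IP over input, log axis) of each of the 12 deposited lines, 1 point per line, with the CHAPIR list on the left and the NC list on the right. The grey band spans the quartiles of all lines in that list and the line is their median; the Nfat5 points lie above the band, Rcan2 and Ppp3cb lie inside it, and Gsk3b has 1 point above and 1 below it.

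Ppp3cb, the catalytic subunit gene, lies on chromosome 14 (20499364 to 20546573, GRCm38, minus strand). It had no line in the CHAPIR list and 3 in the NC list, on 3 protein-coding transcripts. Their windows were chromosome 14, 20501223 to 20501552 (330 exonic bases), 20501247 to 20501546 and 20501249 to 20501548 (300 exonic bases each). All of them were annotated to both coding sequence and 3' UTR, so the site covers the stop codon, and it ended 1859 genomic bases before the 3' end of the gene.

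The widest of these Ppp3cb lines had a fold of 3.09 at an FDR of 1.12e-10, and the other lines a fold of 3.17 at 1.55e-10. A lower fold was found for 41.0% of NC lines against 3.09 and 42.8% against 3.17, which places Ppp3cb a little under the middle of the list by fold. By FDR it stood higher: it ranked 199 by smallest FDR among the 2081 genes with an NC peak only, whose median best FDR was 0.00024, but 1486 by fold. Of those 2081 genes, 12.8% had their best peak (the line with the smallest FDR) across the coding sequence and 3' UTR as Ppp3cb did. With a fold of at least 4 required in both lists, Ppp3cb had no peak in either.

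Rcan2, the calcineurin regulator gene on chromosome 17 (43801352 to 44039516, plus strand), had 2 lines in each list, and the windows were identical base for base. They covered chromosome 17, 44038977 to 44039276 (300 exonic bases) and 44038980 to 44039278 (299 exonic bases), each on its own protein-coding transcript and each wholly in the 3' UTR. The site ended 238 to 240 bases before the 3' end of the gene. Over all shared genes such identity was uncommon: of the 3557 genes in both lists, 3223 (90.6%) had peaks that shared at least 1 base, 408 (11.5%) had at least 1 line with the same transcript and window, and 71 (2.0%), Rcan2 among them, had every line the same. A gene with few lines has fewer to match, and the share among genes with as few lines as Rcan2 was not counted.

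In the CHAPIR list the Rcan2 lines had folds of 4.66 and 4.58, with FDRs of 7.94e-70 and 1e-68. In the NC list the same windows had folds of 3.06 and 2.99, with FDRs of 1.26e-52 and 2.00e-51. By fold they lay near the middle of both lists: 61.8% and 60.7% of CHAPIR lines and 40.2% and 38.4% of NC lines had a lower fold.

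By FDR the Rcan2 site stood near the top of each list. A larger FDR was found for 95.5% and 95.4% of CHAPIR lines against its lines, and for 93.9% and 93.6% of NC lines. Among the 3557 shared genes it ranked 259 by smallest FDR in the CHAPIR list and 439 in the NC list, and 1927 and 2565 by highest fold. At a fold of at least 4 in both lists its NC lines dropped out, and Rcan2 was then in the CHAPIR list only.

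Nfat5, on chromosome 8 (107293435 to 107379517, plus strand), had 3 lines in the CHAPIR list and none in the NC list. They were 151 exonic bases each, at chromosome 8, 107374566 to 107374716, 107374569 to 107374719 and 107374577 to 107374727. The first and second were on protein-coding transcripts and wholly in the 3' UTR, and the third was on a transcript marked for nonsense-mediated decay, where the deposited region is given only as exon. The site lay 4790 to 4801 bases before the 3' end of the gene, farther from it than the 3' sites of the other genes.

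The Nfat5 lines had folds of 13.5, 14.6 and 14.6, all at an FDR of 0.000447. This fold was high for the list and this FDR weak: 94.6% of CHAPIR lines had a fold under 14.6, but only 22.6% had a larger FDR. Among the 1015 genes with a CHAPIR peak only, Nfat5 ranked 74 by fold and 666 by FDR. A fold of exactly 14.6 was shared by 103 lines of 81 genes, whose FDRs ran between 1.00e-131 and 0.00617. Of the 3788 CHAPIR lines whose FDR was at or above that of Nfat5, 158 (4.17%) had a fold over 14.6, and the highest was 18.7. When both lists were limited to an FDR of 1e-05 or less, Nfat5 had no peak in either. The number of input reads behind the fold was not used here.

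Gsk3b, the kinase gene on chromosome 16 (38089001 to 38246084, plus strand), had no line in the CHAPIR list and 2 in the NC list, both on 1 protein-coding transcript and at opposite ends of it. The 3' UTR peak covered 181 exonic bases (chromosome 16, 38242997 to 38243177) and ended 2907 bases before the 3' end of the gene. The 5' UTR peak covered 91 exonic bases (38089630 to 38089720) and began 629 bases after the 5' end.

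These Gsk3b peaks differed in strength within the NC list. The 3' UTR peak had a fold of 6.35 at an FDR of 7.76e-07, with 83.4% of NC lines at a lower fold and 50.5% at a larger FDR. It placed Gsk3b at 496 by FDR and 576 by fold among the 2081 genes with an NC peak only. The 5' UTR peak had a fold of 2.39 at an FDR of 0.0295, where the largest FDR in that list was 0.0501, and only 0.682% of lines had a larger one. The 5' UTR peak was lost at an FDR of 1e-05 or less, at a fold of at least 4 and when the NC list was cut to the length of the CHAPIR list, and the 3' UTR peak was kept under all of these.

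**Figure D2:**
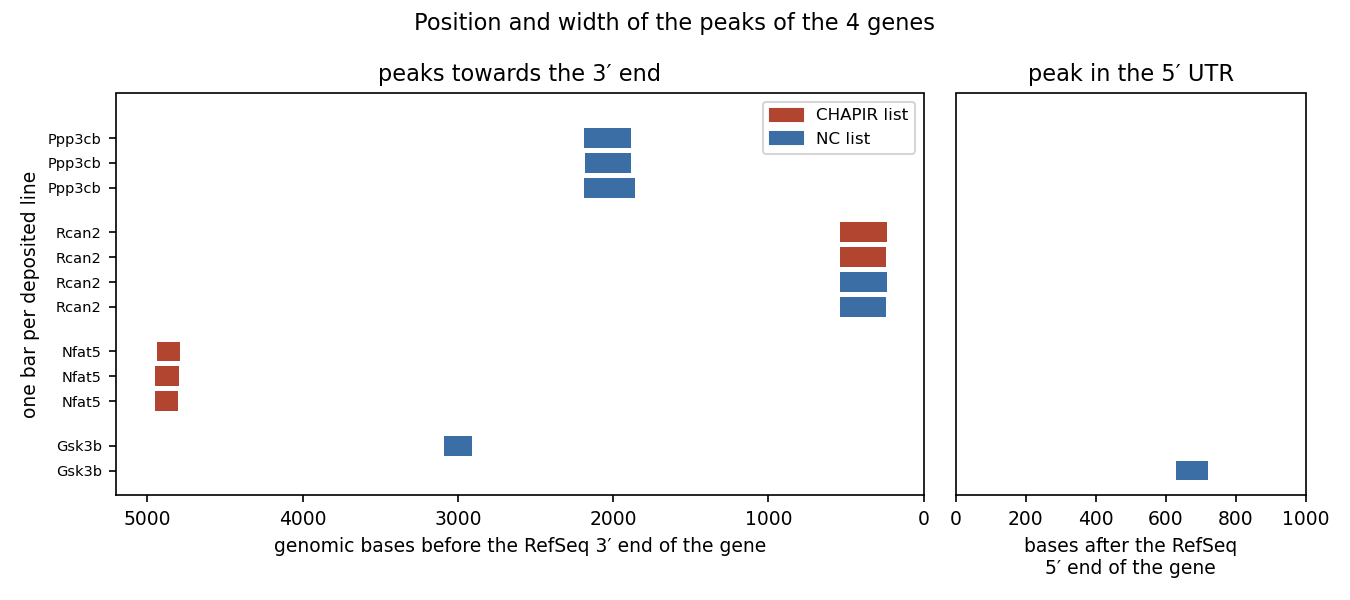
Position and width of the 12 lines, 1 bar per line, with the CHAPIR list in red above the NC list in blue. The left panel gives genomic bases before the RefSeq 3' end of the gene and the right panel bases after its 5' end; the Rcan2 bars of both lists coincide, Nfat5 has CHAPIR bars only, and Ppp3cb and Gsk3b have NC bars only.

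The genes share a position in the 3' part of the transcript. Each has 1 site that lies in the 3' UTR or crosses into it, and only Gsk3b has a further site elsewhere. The rule that chose them did not use position. A best peak wholly in the 3' UTR was also found for 59.3% of genes with a CHAPIR peak only, 24.0% of genes with an NC peak only and, among shared genes, 34.8% in the CHAPIR list and 23.8% in the NC list. These shares use only the best peak of a gene, and they leave out peaks that cross into the 3' UTR, as that of Ppp3cb does. Best peaks across coding sequence and 3' UTR were a further 12.8% of genes with an NC peak only, and were not counted for the other groups. The share of all genes with any site in the 3' UTR or crossing into it was not counted. Whether such a site is more common among the genes described here than among all genes was therefore not tested.

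**Figure D3:**
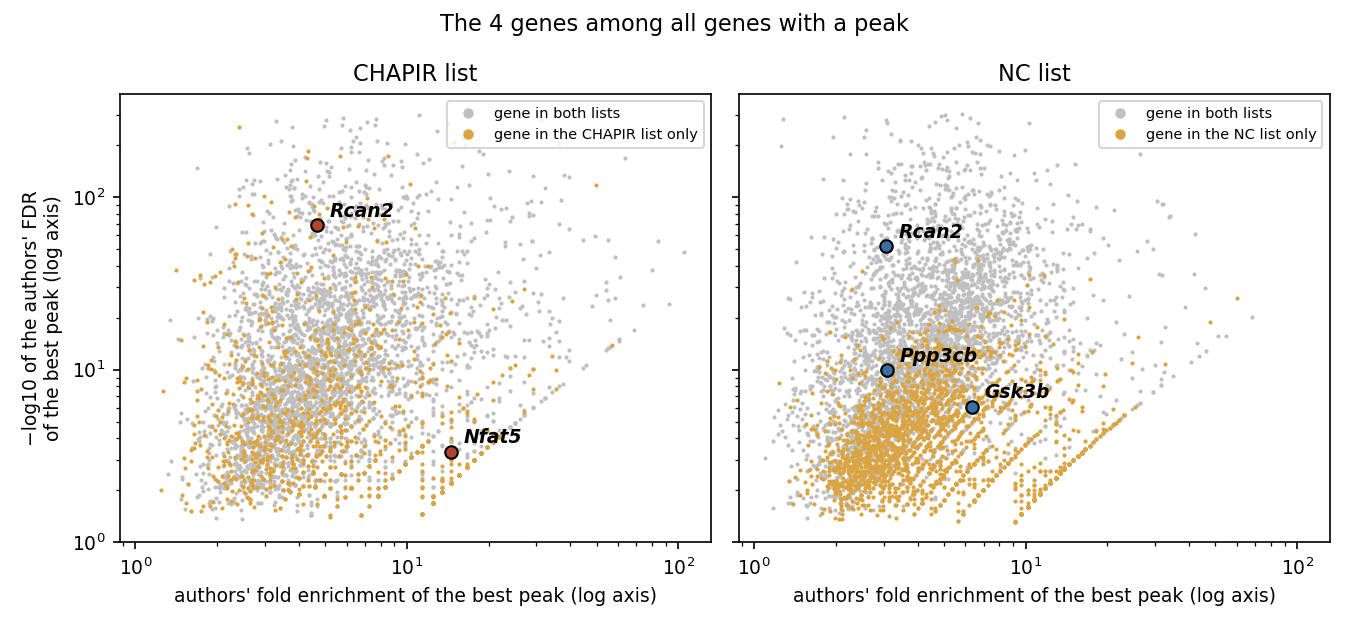
Each gene's best peak (smallest FDR), with the authors' fold enrichment on the horizontal axis and −log10 of the authors' FDR on the vertical axis (both log axes), CHAPIR list left and NC list right, genes of both lists in grey and of 1 list in yellow. Genes with a deposited FDR of 0 (47 in the CHAPIR list and 43 in the NC list) cannot be drawn; Rcan2 sits high at a moderate fold in both panels and Nfat5 low at a high fold.

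The genes most like each of these were taken as those in the same list or lists, with the best peak in the same region and the nearest authors' fold. For Rcan2, over both lists and 682 candidates, they were Anapc16 (4.64-fold in the CHAPIR list and 3.05-fold in the NC list), Trim24 (CHAPIR 4.56, NC 3.07) and Ube2r2 (CHAPIR 4.63, NC 3.13). Their FDRs were much larger than those of Rcan2, the smallest being 1.58e-26 for Ube2r2 in the CHAPIR list. For Ppp3cb, over the NC list and 252 candidates, they were Snapc1 (3.08-fold), Bloc1s5 (3.13) and Cpsf7 (3.03). For Gsk3b, over 484 candidates, they were Ambra1 (6.35-fold), Kctd12b (6.30) and Flt4 (6.44). For Nfat5, 11 of 592 candidates had the same fold of 14.6, among them Ctbs, Dhx58 and Epb41l1, each at an FDR of 0.00617.

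The rest of the pathway was described with a list of 54 further genes, of which 31 had a peak. Of these, 19 (61.3%) were in both lists, 4 (12.9%) in the CHAPIR list only and 8 (25.8%) in the NC list only, beside 53.5%, 15.3% and 31.3% over all genes. Of the 19, 14 had peaks that shared a base between the lists. Folds of these genes are those of the best peak (smallest FDR) in each list, and other lines of a gene can have a higher fold. The best peaks need not lie at the same position. For Ppp3ca, Akap6, Lmcd1, Mef2d and Ctnnb1, for instance, they shared no base, although some peaks of these genes did between the lists. The median best fold of pathway genes was 4.10 over 23 genes in the CHAPIR list and 4.41 over 27 in the NC list, beside 4.90 and 4.24 over all genes.

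Among calcineurin subunits, Ppp3ca, the alpha catalytic subunit gene, was in both lists. Its best peaks were in the 3' UTR, at 3.37-fold in the CHAPIR list and 2.48-fold in the NC list. These windows shared no base but nearly adjoined on chromosome 3. The NC window ended at 136935631 and the CHAPIR window began at 136935633, and some other lines of the gene shared a base between the lists. Ppp3cc, Ppp3r1 and Ppp3r2 were in neither. The beta gene Ppp3cb had no CHAPIR peak and folds of 3.09 to 3.17 in the NC list. The calmodulin genes Calm2 and Calm3 were in both lists. Calm2 had the smallest FDR of the pathway in each list (4.10-fold at 2.00e-99 in the CHAPIR list and 4.76-fold at 1e-148 in the NC list). Both of these lines were on a transcript annotated as retaining an intron. Calm3 had a best CHAPIR peak spanning the stop codon (2.62-fold) and a best NC peak in the 5' UTR (10.2-fold), with no shared base.

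Among the regulators related to Rcan2, Rcan1, itself a known target of NFAT, was in both lists with a peak across the coding sequence and 3' UTR (6.87-fold at 1e-15 in the CHAPIR list and 5.33-fold at 5.01e-27 in the NC list). Rcan3 was in the NC list only, with 1 line of 61 exonic bases at 9.12-fold and an FDR of 0.0490, close to the largest in that list. The anchoring protein gene Akap6, whose product gathers calcineurin at the nuclear envelope of heart muscle cells, was in both lists (CHAPIR 6.78-fold, NC 2.80-fold, 3' UTR), with 4 sites in the CHAPIR list and 8 in the NC list. Fkbp1a (3.53-fold), encoding the protein through which the drug FK506 inhibits calcineurin, and Myoz2 (2.16-fold), encoding a Z-disc protein that binds it, were in the CHAPIR list only. Akap5 (5.19-fold at an FDR of 0.0126) and the calcium release channel gene Itpr1 (3.06-fold at 0.00166) were in the NC list only. The Itpr1 value was from a transcript marked for nonsense-mediated decay. The transcriptional cofactor gene Lmcd1 was in both. Its best CHAPIR peak was in the 3' UTR, at 9.88-fold and an FDR of 0.00141. Its best NC peak lay elsewhere, in the coding sequence, at 4.41-fold and an FDR of 3.98e-11.

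None of the 4 calcineurin-dependent NFAT genes, Nfatc1, Nfatc2, Nfatc3 and Nfatc4, nor Nfatc2ip, had a peak in either list, so Nfat5 was the only NFAT family gene listed. Its osmotic targets divided as follows: the taurine transporter gene Slc6a6 (CHAPIR 4.11-fold, NC 2.23-fold) and the chaperone gene Hspa4l (CHAPIR 3.12-fold, NC 6.68-fold) were in both lists, with the Slc6a6 peaks at separate positions, and Slc5a3, Slc6a12, Akr1b3 and Hspa1b were in neither. All 4 listed partners of NFAT in transcription were in both. Gata4, a cardiac transcription factor gene, had a 3' UTR peak at 21.2-fold (FDR 5.01e-30) in the CHAPIR list. In the NC list it had a coding sequence peak at 1.89-fold with a weak FDR of 0.0141, and these did not overlap. Mef2a was at CHAPIR 5.62-fold and NC 10.2-fold, Mef2c at CHAPIR 3.26-fold and NC 5.18-fold, and Mef2d at CHAPIR 9.57-fold and NC 2.91-fold. The NC value of Mef2a was from a transcript marked for nonsense-mediated decay, and its CHAPIR value from a protein-coding one. The highest folds of any line were CHAPIR 11.4 and NC 16.6 for Mef2a, and CHAPIR 17.2 and NC 12.9 for Mef2c. For Mef2d they were CHAPIR 9.57 and NC 3.02. Folds are not scaled between the lists, so no order between the lists is read from these values.

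Of the genes around Gsk3b, Gsk3a, its close relative, was in both lists with coding sequence peaks at separate positions (1.79-fold in the CHAPIR list and 4.41-fold in the NC list). Dyrk1a, a kinase that primes NFAT for GSK3, had a peak over the stop codon in both lists (CHAPIR 7.82-fold, NC 4.42-fold), Csnk1a1 a 5' UTR peak in both (CHAPIR 15.3-fold, NC 4.24-fold), and Dyrk2 a peak in the NC list only (8.31-fold). Akt1, whose product inhibits GSK3, was in both lists at separate positions (CHAPIR 7.33-fold in the 3' UTR, NC 26.3-fold on a processed transcript), and Akt2 was in the CHAPIR list only (2.20-fold).

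In the complex and among the substrates of GSK3, 6 listed genes had a peak and 3 were in the NC list only. These were the scaffold gene Axin1 (6.11-fold), the glycogen synthase gene Gys1 (2.40-fold) and the translation factor gene Eif2b5 (2.37-fold). So few genes cannot be set apart from the 31.3% of all genes in the NC list only, where Gsk3b also was. Their best FDRs (2.04e-05, 0.00112 and 3.80e-05, in that order) were above 1e-05, and that of Gsk3b (7.76e-07) was under it. Myc was in the CHAPIR list only (57.2-fold, 3' UTR). Apc (CHAPIR 4.05-fold, NC 4.71-fold) and the beta-catenin gene Ctnnb1 (CHAPIR 1.81-fold, NC 1.45-fold) were in both. Their highest folds of any line, again not scaled between the lists, were CHAPIR 6.94 and NC 4.89 for Apc. For Ctnnb1 they were CHAPIR 1.90 and NC 5.90. Of the calcium entry genes, Stim1 was in the NC list only (3.68-fold) and Orai1, Trpc1 and Trpc6 were in neither. Cabin1, Ppia, Chp1, Cib1, Myoz1, Ilk and Axin2 also had no peak.

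**Figure D4:**
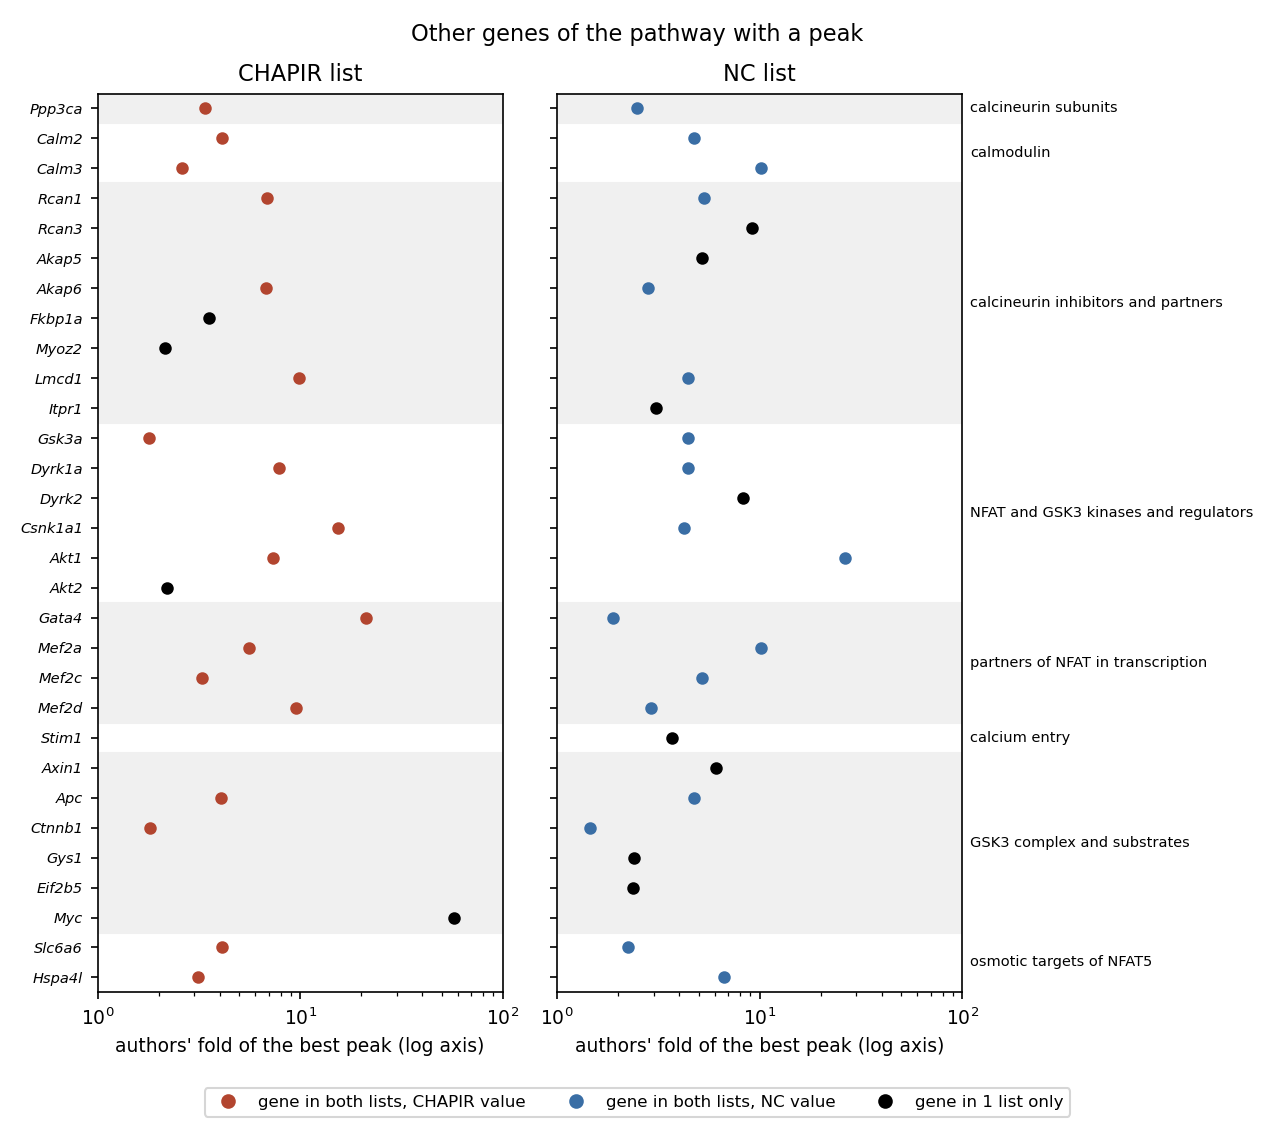
Authors' fold of the best peak (log axis) for 30 of the further pathway genes with a peak, grouped by role, CHAPIR list left and NC list right. Coloured points are genes in both lists and black points genes in 1 list only, of which 4 are in the CHAPIR list and 8 in the NC list.

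The lists carried the marks of heart tissue, with 11 of 12 heart muscle cell markers having a peak in the CHAPIR list and 11 of 12 in the NC list (10 in both). Markers of other cell types depended on the genes taken: the 4 listed macrophage markers (Cd74, Lyz2, C1qb and Csf1r) were in the CHAPIR list only and the 3 listed adipocyte markers (Adipoq, Plin1 and Cfd) in the NC list only. The macrophage genes C1qa, Cd163, Fcgr1 and C3ar1 and the adipocyte gene Fabp4, which were not on these lists and were looked up after the values were seen, were in both. Of 4 markers each, endothelial genes had 3 in the CHAPIR list and 4 in the NC list, fibroblast genes 4 and 3, and smooth muscle and pericyte genes 4 and 3. The X-inactivation transcript Xist had no line in the CHAPIR list and 10 in the NC list, and the Y-linked gene Ddx3y had 2 and none, both picked after their values were seen. With 1 library pair per group, treatment, sex and cell makeup cannot be told apart in the presence of Nfat5, Ppp3cb or Gsk3b in 1 list. Absence from a list means only that no peak of the gene passed the authors' caller, and whether its mRNA was unmethylated was not tested. In bulk tissue fewer cells of a type and less RNA per cell cannot be told apart either.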

How the data were processed

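MeRIP-seq was deposited for 1 IP and 1 input library of CHAPIR and of NC hearts. Per the labels' protocols, mRNA was fragmented to 100 nucleotides, sequenced for 150 cycles, trimmed with cutadapt and aligned with HISAT2 (2.1.0 and GRCm38, per the submitters' processing notes), and peaks were called with exomePeak. Of its version, options and use of strand nothing is given in the sources used here. Per the file headers, the deposited fold enrichment is a ratio, and the deposited p-value and FDR belong to each peak. Depth per sample is unknown, so no interval can be given.

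Lines were selected by symbol with Python 3.11.15 and pandas 2.3.3. Starts count from 0 in the files (399 CHAPIR and 186 NC lines start 1 base before a RefSeq gene start, 102 and 38 at it) and were raised by 1. Overlap needed 1 shared exonic base on the same strand, and this step was tested on simulated peaks. Gene spans came from RefSeq (GRCm38). All 54 pathway symbols were found there. No test between groups was possible. Pathway genes were named when in 1 list only, or by smallest CHAPIR FDR among shared ones (up to 8), and others were added by role after their values were seen. Some genes that this rule names are counted but not reported here by name. The 3 nearest genes by fold were named for each of the 4. The members and lists were chosen with earlier results of these data known. Peak sequences were not used here. Alternatives were lists of equal length, a fold of at least 4, an FDR of 1e-05 or less, protein-coding transcripts only, and other overlap rules.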

Additional observations from a re-analysis of the deposited data

How the results depend on the processing

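Presence of the 4 genes moved with the threshold on peaks and not with the list length or transcript type. At an FDR at or under 1e-05, 1 of them (Rcan2) had a CHAPIR peak and 3 an NC peak. At a fold of at least 4, 2 had a CHAPIR peak and 1 (Gsk3b) an NC peak, and then 0 CHAPIR lines and 0 NC lines shared a base, against 2 and 2 before. The 2 and 2 were kept with 50% of both peaks, 50% of the shorter peak, whole spans or strand ignored. Of the pathway genes, 7 were CHAPIR only and 5 NC only at an FDR at or under 1e-05 (beside 18.4% and 30.0% of all genes), so the order of these counts turned. With lists of equal length 5 were CHAPIR only and 4 NC only (18.5% and 14.8%, beside 24.1% and 19.6% of all genes, where the order turned too). At a fold of at least 4, 10 were in both (43.5%, beside 36.6% of all genes). With overlapping lines merged, added after seeing the data, each line group of Ppp3cb, Rcan2 and Nfat5 counted as 1. No paired analysis was possible because each group had 1 IP library. Depth was unknown, so the detection limit of either list is too.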

Other observations

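The 3' UTR peak of Gsk3b in the NC list shared both its fold (6.35) and its FDR (7.76e-07) with peaks of 2 other genes, Ambra1 and Cd3eap. No other gene shared both values with any line of Ppp3cb, Rcan2 or Nfat5.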
